A study of Caenorhabditis elegans with 2 samples.

Results

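The regions described here are the 238 UNC-3 peaks that lay away from annotated promoters and away from tRNA genes, out of the 631 peaks of the main list, the conservative list the authors deposited for both replicates together. A peak was counted as distal when its summit was on a nuclear chromosome, more than 500 bp from the 5' end of every protein-coding transcript and with no tRNA gene within 500 bp. Of the other main peaks, 233 were promoter-proximal and away from tRNA genes, and 160 lay within 500 bp of a tRNA gene. The choice used positions only, not the peaks' strength or their sequence.

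Chromatin from whole late embryos of Caenorhabditis elegans strain RW12259 was precipitated with an antibody against GFP, although the antibody label itself reads unc-3. The strain carries the allele st12259[unc-3::TY1::EGFP::3xFLAG], made by CRISPR and labelled as an insertion on chromosome II, whereas the annotated unc-3 gene is on X. The embryos were synchronised by egg bleaching and are given an age of 2.5 hours, from a starting point that the labels do not state. There was 1 group, of 2 biological replicates, and no control library was used here, so the presence of a peak is not by itself evidence of UNC-3 binding.

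The COE family of transcription factors, named after Collier, Olf and EBF, has 1 gene in the worm, unc-3. In cholinergic motor neurons UNC-3 acts as a terminal selector, which means that it turns on the genes of the mature neuron. In whole embryos those neurons are a minority of the nuclei. Small nucleolar RNAs (snoRNAs) guide the chemical modification of ribosomal RNA; in many animals they are cut from the introns of host genes, and in nematodes some are known to have promoters of their own. The tRNA genes, which RNA polymerase III reads, carry internal promoter elements called the A box and the B box, which the factor TFIIIC binds.

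The sequences under the distal peaks show several unlike kinds of site. The first kind held the COE sequence, TCCC and GGGA with any 2 bases between them, searched on both strands within 100 bp of the summit. Of the 11 such sites 7 are shown on the plus strand of WBcel235 (ce11), with the motif in capitals and 15 bases on each side.
egl-27 (chrII:6838440-6838479, plus strand): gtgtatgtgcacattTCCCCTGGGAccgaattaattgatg
dmsr-7 (chrV:5404125-5404164, plus strand): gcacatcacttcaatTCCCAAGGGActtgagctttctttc
cha-1/unc-17 (chrIV:3621911-3621950, plus strand): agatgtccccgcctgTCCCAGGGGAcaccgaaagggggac
C08G9.1 (chrIV:7663169-7663208, plus strand): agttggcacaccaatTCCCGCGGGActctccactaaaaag
plr-1 (chrIII:11459152-11459191, plus strand): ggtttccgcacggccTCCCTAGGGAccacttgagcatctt
ergi-2 (chrX:15011716-15011755, plus strand): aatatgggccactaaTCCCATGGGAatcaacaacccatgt
C02F4.4 (chrIV:10512081-10512120, plus strand): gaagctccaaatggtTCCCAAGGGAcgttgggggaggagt
For comparison, the following 4 members held only the relaxed form of the motif, which allows either pyrimidine at its first base and either purine at its last.
vab-1 (chrII:4579585-4579624, plus strand): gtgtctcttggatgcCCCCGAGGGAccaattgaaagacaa
unc-3 (chrX:14776584-14776623, plus strand): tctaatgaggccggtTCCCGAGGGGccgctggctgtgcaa
lgc-30 (chrIV:922482-922521, plus strand): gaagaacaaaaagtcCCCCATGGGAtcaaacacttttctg
syd-9 (chrX:7224645-7224684, plus strand): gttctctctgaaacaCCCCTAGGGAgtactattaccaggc

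The second kind of site lay just before the 5' end of a snoRNA gene. The strand of the snoRNA gene is shown, from 110 bases before its 5' end to the first 10 bases of the gene, for 6 of the 13 members in which both elements described next were found. Capitals mark a loose match to the A box of tRNA genes (TGG, any 3 bases, AG, any 1 or 2 bases, GG) and, after it, a loose match to the B box (GTTCNANNC). These patterns were chosen after the sequences had been seen, so that their counts are a description with no test.
W03C9.9 (chrII:11960788-11960907, plus strand): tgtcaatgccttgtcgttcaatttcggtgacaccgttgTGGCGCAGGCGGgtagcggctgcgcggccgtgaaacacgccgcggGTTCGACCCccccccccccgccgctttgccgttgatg
T03F7.8 (chrV:11314148-11314267, plus strand): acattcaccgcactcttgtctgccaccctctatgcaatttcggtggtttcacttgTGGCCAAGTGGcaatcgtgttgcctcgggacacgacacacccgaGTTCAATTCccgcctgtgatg
C04G6.12 (chrII:5105222-5105341, minus strand): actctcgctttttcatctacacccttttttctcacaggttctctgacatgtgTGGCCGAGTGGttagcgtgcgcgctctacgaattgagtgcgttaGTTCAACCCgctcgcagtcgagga
F32E10.10 (chrIV:7574012-7574131, plus strand): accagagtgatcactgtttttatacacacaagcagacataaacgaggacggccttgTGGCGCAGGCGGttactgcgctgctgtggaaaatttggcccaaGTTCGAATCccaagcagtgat
Y43F8C.22 (chrV:19643178-19643297, minus strand): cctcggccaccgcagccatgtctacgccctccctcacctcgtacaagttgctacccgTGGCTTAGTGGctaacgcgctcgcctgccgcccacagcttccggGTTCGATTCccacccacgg
F30H5.4 (chrIII:502694-502813, plus strand): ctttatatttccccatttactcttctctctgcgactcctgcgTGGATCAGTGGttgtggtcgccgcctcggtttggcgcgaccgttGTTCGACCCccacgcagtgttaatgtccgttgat

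The same elements also occurred at distal peaks with no annotated short RNA gene within 500 bp. The 4 of highest signal are shown on the strand that holds the elements, again in capitals.
nhr-277 (chrIV:2740206-2740280, plus strand): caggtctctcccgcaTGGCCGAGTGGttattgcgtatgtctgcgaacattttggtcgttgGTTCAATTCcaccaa
tpra-1 (chrIV:8964234-8964317, plus strand): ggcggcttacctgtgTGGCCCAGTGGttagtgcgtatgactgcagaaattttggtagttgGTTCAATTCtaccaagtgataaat
srsx-8 (chrV:1561369-1561452, plus strand): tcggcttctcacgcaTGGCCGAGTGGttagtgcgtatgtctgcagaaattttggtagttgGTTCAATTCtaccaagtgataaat
srt-52 (chrV:53468-53551, plus strand): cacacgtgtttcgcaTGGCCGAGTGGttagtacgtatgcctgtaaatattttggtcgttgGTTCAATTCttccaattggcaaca

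A further kind lay in tandem repeats, of which the 3 members of highest signal are shown as the 121 bases around the summit on the plus strand; no letters are marked.
Y54F10AM.8 (chrIII:2497939-2498059, plus strand): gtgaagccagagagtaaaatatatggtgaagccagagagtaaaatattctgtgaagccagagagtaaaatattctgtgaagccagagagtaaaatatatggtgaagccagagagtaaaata
Y54F10AM.8 (chrIII:2499418-2499538, plus strand): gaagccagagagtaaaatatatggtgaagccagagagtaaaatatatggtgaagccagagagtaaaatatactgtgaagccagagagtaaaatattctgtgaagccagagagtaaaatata
Y53G8AR.1 (chrIII:3335079-3335199, plus strand): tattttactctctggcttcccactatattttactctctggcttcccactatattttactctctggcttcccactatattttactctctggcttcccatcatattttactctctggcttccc
The strongest distal peak outside these kinds lay near K12H4.5 and is shown in the same way.
K12H4.5 (chrIII:8043904-8044024, plus strand): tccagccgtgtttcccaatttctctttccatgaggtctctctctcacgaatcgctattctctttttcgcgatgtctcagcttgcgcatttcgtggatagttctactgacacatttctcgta

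By position, 135 of the 238 distal summits lay between protein-coding genes (56.7%, exact Clopper-Pearson 95% interval 50.2 to 63.1). Another 93 lay in introns (39.1%, 32.8 to 45.6, against 32.0% of all main peaks), 6 in coding exons and 4 in untranslated regions. Only protein-coding genes were used for these classes, so a summit called intergenic can lie within a gene of another class. Intervals here and below cover counting error over peaks only. Introns held 34.9% of the 21739 distal peaks that ranked lower, meaning peaks of the deposited ranked list that overlapped no thresholded list, and the difference did not pass the threshold of 0.05 (odds ratio 1.20 by two-sided Fisher's exact test, with adjusted p = 0.262 over the 17 tests of this kind made here). Peaks are not independent replicates of an experiment, and these p-values set classes of peaks against each other.

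The 93 intronic summits fell in 85 host genes. Of these hosts, 7 held more than 1 member. The muscleblind splicing factor gene mbl-1 and the zinc finger gene syd-9, which acts at synapses, held 3 each. Cadherin gene cdh-1, the LIM domain binding gene ldb-1, miz-1, W06H8.6 and Y32F6A.5 held 2 each. Many of these members lay close together: in each of these hosts but Y32F6A.5 a member was the weaker of a pair within 300 bp. Whether such a pair marks a single site was not tested. At cdh-1 the signals were 54.36 and 3.797, 202 bp apart, and at syd-9 they were 60.4, 15.3 and 2.53. The summits at Y32F6A.5 and one of those at mbl-1 (72.8) were farther from the others. For the 91 summits with an intron length, the median was 1466 bp, and 56 introns had 1000 bp or more. Over the 109044 distinct introns of protein-coding transcripts, each counted once whatever its length, the median was 68 bp and the share 7.71%. A longer intron holds more positions for a summit, so some excess of longer introns is built into the counting. Its size was not computed, and the difference is not taken as a result about the members. Among the summits in introns, 7 were in the first intron and 27 in the first or second. These counts were not set against a background.

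The deposited signal, which no source used here defines, had a median of 74.6 over the distal members and ranged between 2.18 and 500.8. Intronic members had a median of 72.4 and intergenic ones 77.3. A signal above the median of all main peaks was reached by 37 of 93 intronic and 63 of 135 intergenic members (39.8% and 46.7%, Fisher's exact test, adjusted p = 0.416). Distal members reached it in 42.4% of cases and promoter-proximal peaks in 44.6% (adjusted p = 0.683, Fisher's exact test), with medians of 74.6 and 78.4. The share over all main peaks was 49.9%. This comparison moved with the settings. With the 5' ends of all genes counted as promoters, distal members were lower by Fisher's exact test (-18.5 percentage points, adjusted p = 0.000501), and with promoters of 1000 or 2000 bp, or the list of 1 replicate alone, the direction turned (0.697 to 14.6 points, not passing). Closely spaced peaks made up much of the low tail: of the 18 members with a signal under 50, 11 were the weaker of a pair of members within 300 bp of each other. Such pairs can share 1 replicate peak, so that their replicate values are the same.

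**Figure D1:**
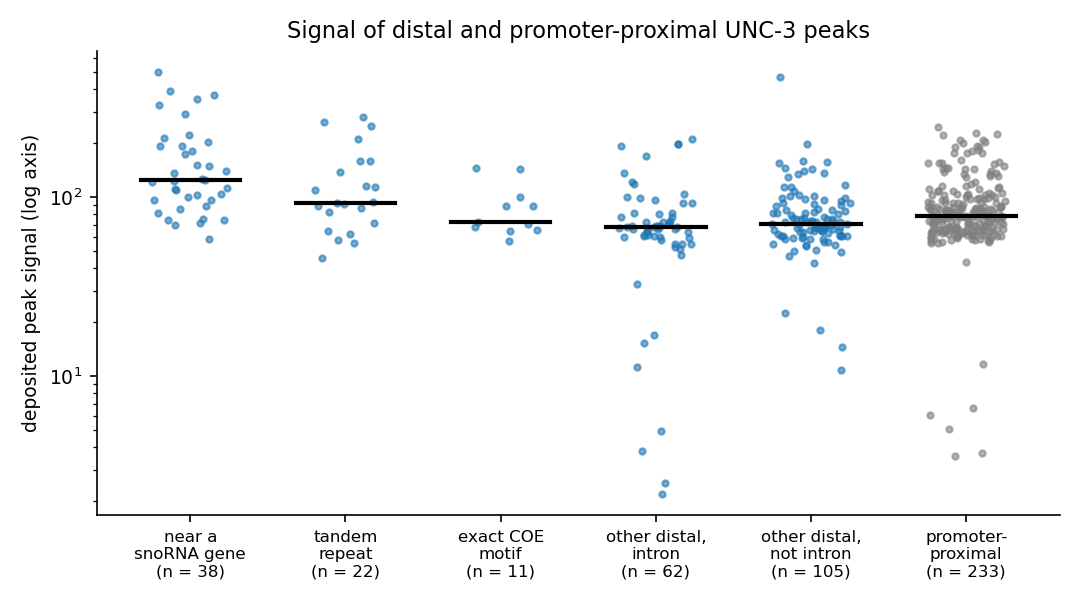
Deposited peak signal, on a log axis, of each distal member by class and of each promoter-proximal peak; points are peaks, bars are medians. Members near a snoRNA gene had a median of 124 and tandem repeat members 92.8, against 72.4 for members with the exact COE motif, 67.7 for the other intronic members, 71.1 for the other members outside introns and 78.4 for promoter-proximal peaks.

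Many of the strongest distal peaks lay beside snoRNA genes. Within 500 bp of a snoRNA gene lay 38 of the 238 distal summits (16%, 95% interval 11.6 to 21.3), against 12 of 233 promoter-proximal summits (5.15%, 2.69 to 8.82), with an odds ratio of 3.50 by Fisher's exact test (adjusted p = 0.000352). The share over all main peaks was 7.92%. Among lower ranked distal peaks it was 0.501%, giving by Fisher's exact test an odds ratio of 37.7 (adjusted p = 1.38e-40). Nearness to snoRNA genes was examined with earlier results of these data known, so these p-values are a description. How many annotated snoRNA genes lie more than 500 bp from protein-coding 5' ends was not counted. The excess over promoter-proximal peaks did not pass when distal meant more than 2000 bp away, and it turned round when the 5' ends of all genes counted as promoters, since the ends of snoRNA genes were then promoters themselves. Genes of the broad ncRNA class lay within 500 bp of more members, 59 of 238 (24.8%), against 31.9% of all main peaks.

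The 38 summits had 38 different nearest snoRNA genes, of the 346 annotated, and 0 of these were on X. Of the 10 distal peaks of highest signal 6 had a snoRNA gene nearby, as did 10 of the 20 highest. The highest of all was C51F7.4, in an intron of the FERM domain gene frm-7, with a main signal of 500.8 (259 in replicate 1, 234 in replicate 2). W03C9.9, between protein-coding genes, followed with 394 (228 in replicate 1, 164 in replicate 2). ZK994.7, in an intron of the peroxidasin gene pxn-1, had 373 (207 in replicate 1, 170 in replicate 2). Each of these was well above the median distal signal in both replicates. ZK265.10 near the chemoreceptor gene sre-23 had 354, T03F7.8 in an intron of the cuticlin-like gene cutl-18 had 328, and T06C12.16 near the chemoreceptor gene str-56 had 290. Next were C04G6.12 in an intron of the MAP kinase gene mpk-2 (222), T19B4.8 near pamn-1 (213), F32E10.10 near cec-4 (202) and C10C6.8 in an intron of the ATPase gene catp-8 (194). Those with lower signal reached down to R12E2.17, in an intron of the proteasome subunit gene rpn-8, with 58.5.

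The snoRNA summits had a common position. In 34 of 38 members the summit lay upstream of the snoRNA 5' end, with a median of 46 bp upstream (quartiles -55.75 and -31.5 bp, where a minus sign means upstream). Between 30 and 65 bp upstream lay 26 of 38 (68.4%). Among the 109 lower ranked distal peaks near a snoRNA gene, 48 lay upstream, 7 (6.42%) were in the same band, and the median was 62 bp downstream. The 12 promoter-proximal peaks near a snoRNA gene had a median of 58 bp upstream. The exceptions among the members were C51F7.4 (39 bp inside the 5' end), Y38F2AR.14 (1 bp), T10B9.11 (26 bp) and ZK20.9 (55 bp). The farthest was C26C6.13, with its summit 277 bp upstream.

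**Figure D2:**
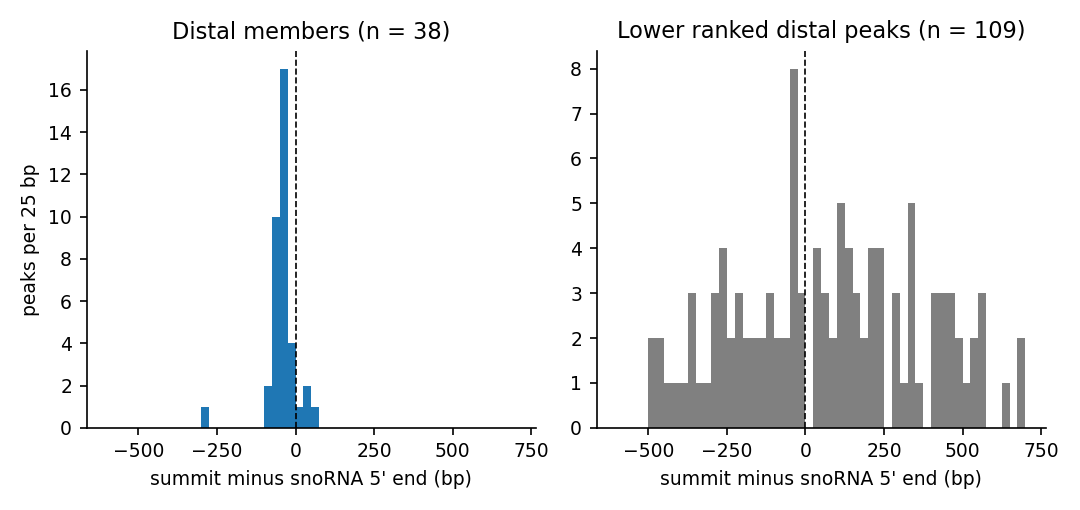
Distance in bp between the summit and the 5' end of the nearest snoRNA gene, negative when the summit is upstream, for 38 distal members (left) and 109 lower ranked distal peaks (right), in bins of 25 bp with separate vertical axes. The members cluster just upstream of the 5' end, whereas the lower ranked peaks spread over both sides.

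Of the 38 snoRNA genes, 19 lay at intronic summits, 15 of them on the host's strand and 4 on the opposite strand. The strand split over all intronic snoRNA genes was not counted. Summits in introns had a snoRNA gene nearby in 20.4% of cases and intergenic summits in 13.3% (Fisher's exact test, adjusted p = 0.262). The 38 genes were 62 to 180 bp long, with a median of 75.5 bp.

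A loose match to at least 1 element of tRNA genes was found at most of these snoRNA genes, and to both at 13. In the 120 bases before the 5' end and the first 10 of the gene, on its strand, 21 of 38 held the loose A element, 19 the loose B element, 27 either (71.1%) and 13 both in the order A then B (34.2%, 95% interval 19.6 to 51.4). Both were found in 2 of 12 snoRNA genes at promoter-proximal peaks, 1 of 84 at lower ranked distal peaks (1.19%) and 2 of 212 without any such peak (0.943%). The shares with either element in these sets were 50%, 10.7% and 6.6%, in that order. Where both were present, the A element began a median of 59 bp and the B element 14 bp before the 5' end, 43 to 45 bp apart, and 10 of the 13 summits lay between them. In the sequences printed above, W03C9.9, T03F7.8, C04G6.12, F32E10.10, Y43F8C.22 and F30H5.4 have this arrangement.

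The strict B box, GGTTCGA and CC with any 2 bases between them, was within 100 bp of 11 distal summits (4.62%), 0 of 233 promoter-proximal summits (a count of 0 allows up to 1.57% by the exact interval) and 0.483% of lower ranked distal peaks. It was in 7 of the 38 snoRNA members. Over all main peaks, which include those at tRNA genes, the share was 17.1%, and 0.315% of 498866 windows of 201 bases over the genome held it. This motif was also chosen with earlier results known and was not tested.

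Around the summits themselves, 21 distal members held both loose elements on 1 strand, A before B at 30 to 80 bp (8.82%, 95% interval 5.54 to 13.2), against 5 promoter-proximal peaks (2.15%) and 91 lower ranked distal peaks (0.419%). The spacing was 43 to 45 bp in 20 of the 21 distal members, 4 of the 5 promoter-proximal peaks and 65 of the 91 lower ranked distal peaks (71.4%). The share with both elements over all main peaks, which include those at tRNA genes, was not counted. Of the 21, 14 were near a snoRNA gene and 7 had no short RNA gene nearby. The 7 lay at nhr-277, a nuclear receptor gene (signal 140), tpra-1 (119), srsx-8 (108), srt-52 (103), sms-3 (95.4), lmd-3 (81.6) and seld-1 (64.3). They were named after their values were seen. From the start of the A element to the end of the B element, 6 of them span 54 bases, and those at tpra-1 and srsx-8 are 96.3% identical, those at tpra-1 and lmd-3 94.4%, and those at nhr-277 and srsx-8 90.7%. That at sms-3 was unlike the others, at 55.6% to tpra-1. Of the 7, 5 lay in sequence that occurs elsewhere in the genome, and the nhr-277 summit was 34 bp from the tRNA pseudogene Y94H6A.t1 of RefSeq. Further tRNA pseudogenes were within 500 bp of the members at fars-1, a tRNA synthetase gene, unc-104 and dyf-19.

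Other short RNA genes lay at 10 distal summits, 8 near genes of the small nuclear RNA class and 2 near microRNA genes. Among the snRNA class were sls-2.4 (signal 136), sls-2.2 (89.6) and sls-2.1 (84.5), which encode the SL2 RNA used in trans-splicing. For sls-2.4 the replicate signals were 59.6 in replicate 1 and 71.5 in replicate 2, and for sls-2.1 they were 29.9 and 57.0. Weaker second peaks of 22.4 and 10.7 beside sls-2.4 and sls-2.2 share those replicate peaks. Members in introns of dhc-4, a dynein heavy chain gene (197), and C28A5.6 (136) lay at snRNA genes annotated with the same name, R07E5.16, and F54D8.7 (83.9) was the remaining one. The microRNA genes were mir-51 (197) and mir-52 (146), which belong to the mir-51 family. The summit near mir-51 lay 100 bp upstream of its 5' end. That summit was within F36H1.17, a gene of the ncRNA class, and 53 bp from a strict B box. No ribosomal RNA gene was within 500 bp of a distal summit. The peak in an intron of the Integrator subunit gene ints-8 (198, with 110 in replicate 1 and 89.9 in replicate 2) had its summit 6 bp from rpr-1, the gene of the RNA of ribonuclease P. In all, a snoRNA, snRNA or microRNA gene was within 500 bp of 48 members (20.2%). Their median signal was 124, against 69.5 for the 190 without one. For the snRNA, microRNA and combined counts no share over all main peaks is given, so they are no contrast with other peaks.

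The COE motif was at few distal peaks, but it was close to their summits. The exact motif was within 100 bp of 11 of 238 summits (4.62%, 95% interval 2.33 to 8.12), against 3 of 233 promoter-proximal summits (1.29%, 0.266 to 3.72). The share over all main peaks was 2.38%. The difference did not pass the threshold (odds ratio 3.72 by Fisher's exact test, with adjusted p = 0.0917), although it passed in 4 alternatives, among them a limit of 1000 bp in place of 500 (adjusted p = 0.0147) and multi-copy sequence left out (adjusted p = 0.0245). In 8 others it did not pass, and the difference, 3.33 percentage points as first given, was 1.23 without replicate 1 (5 of 137 against 3 of 124 peaks, Fisher's exact test, adjusted p = 0.837), 2.30 without replicate 2 (6 of 125 against 3 of 120, adjusted p = 0.623) and 1.64 with a limit of 250 bp (adjusted p = 0.568). Against lower ranked distal peaks, of which 0.317% held it, the odds ratio by Fisher's exact test was 15.2 (adjusted p = 4.4e-09). The relaxed motif was at 15 distal summits (6.3%), 5 promoter-proximal summits (2.15%, adjusted p = 0.0795) and 0.649% of lower ranked distal peaks (odds ratio 10.3 by Fisher's exact test, with adjusted p = 1.41e-09). Over all main peaks the relaxed share was 3.33%. The share of G and C in the 201 bases around the summit had a median of 45.77% over distal members. Over lower ranked distal peaks it was 39.3%, and the part of base composition in these odds ratios was not tested. Of 498866 genome windows of 201 bases, 0.0746% held the exact motif and 0.196% the relaxed one. All 11 exact sites within 500 bp of a distal summit were within 60 bp of it, at a median of 28.5 bp.

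**Figure D3:**
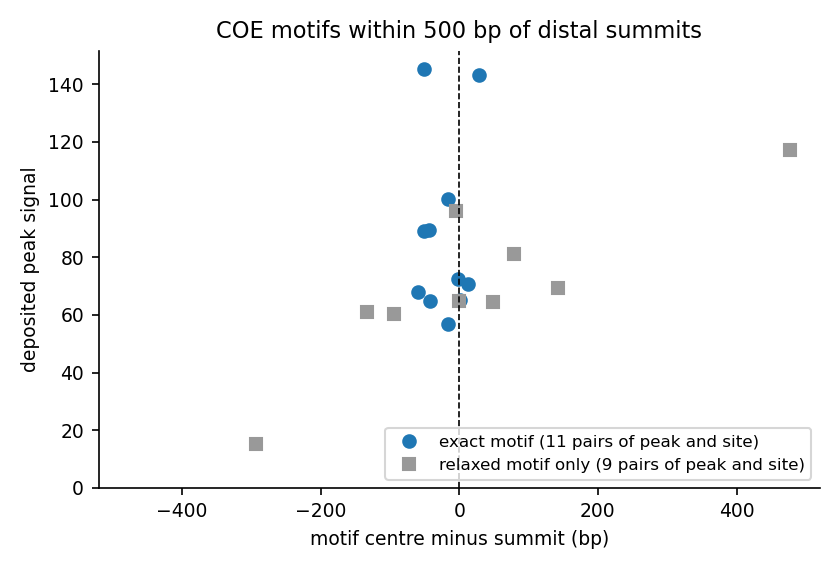
Deposited signal of distal peaks (vertical axis) against the distance in bp between the centre of a COE motif and the summit (horizontal axis), for every exact site and every site of the relaxed form only within 500 bp; a relaxed site near syd-9 counts for each of 2 neighbouring peaks. The 11 exact sites lie within 60 bp of the summit, and the relaxed ones reach 476.5 bp.

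Of the 11 members with the exact motif 8 lay in introns. The highest was in an intron of egl-27, which encodes a chromatin protein related to the MTA proteins (signal 145, with 88.5 in replicate 1 and 50.2 in replicate 2). The peak 1237 bp upstream of dmsr-7, a neuropeptide receptor gene, had 143 (74.2 in replicate 1, 61.7 in replicate 2). In an intron of let-526, the gene of a SWI/SNF subunit, it was 100.3 (50.5 in replicate 1, 50.7 in replicate 2). These were the only members of the 11 with a signal above 100 in the main list. The genes cha-1 and unc-17, which make and package acetylcholine, have an intron in common, and its motif lay 43.5 bp from the summit of a peak of 89.4, ranked 88 among the distal peaks. Signals for the others were 89.1 at C08G9.1, 72.4 at plr-1, a transmembrane RING finger gene, 70.7 at the homeodomain gene zfh-2, 68.1 at ergi-2, 65.2 at C02F4.4, 64.9 at C53D5.5 and 56.9 at lin-59, which encodes a histone methyltransferase. None of the 11 had a snoRNA gene nearby, and their median of 72.4 was below the 124 of the snoRNA members. The ephrin receptor gene vab-1, unc-3 itself, the ligand-gated channel gene lgc-30 and syd-9 held only the relaxed motif, with signals of 96.0, 80.9, 64.5 and 60.4 in that order.

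Of the other sequences searched, GAGAGA was within 100 bp of 28.6% of distal and 27.5% of promoter-proximal summits (Fisher's exact test, adjusted p = 0.838), near the 29.2% of all main peaks. It was at 13.9% of lower ranked distal peaks (odds ratio 2.48 by Fisher's exact test, with adjusted p = 1.6e-08), but with the upper part of the main list by signal the excess was 4.75 percentage points and did not pass (adjusted p = 0.324). The sequence TGATAA was at 9.24% of distal members and 13.8% of lower ranked distal peaks, with 7.61% over all main peaks (odds ratio 0.637 by Fisher's exact test, with adjusted p = 0.0872).

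Multi-copy sequence lay under more distal than promoter-proximal peaks, at a share near that of all main peaks. In 60 of 238 (25.2%, 95% interval 19.8 to 31.2) the summit and the 50 bases on each side of it matched another place in the genome at 90% identity or more over at least 80% of their length, compared with 12 of 233 promoter-proximal peaks (5.15%), with an odds ratio of 6.21 by Fisher's exact test (adjusted p = 3.11e-09). Over all main peaks, which include those at tRNA genes, the share was 23.0%, and over lower ranked distal peaks it was 12.8%. Tandem repeats, with a period of 10 to 60 bp that matched itself in at least 80% of bases, were at 22 distal members (9.24%), 1 promoter-proximal peak (0.429%) and 1.63% of lower ranked distal peaks, and at 3.65% of all main peaks. This count was chosen after the sequences had been seen and was not tested. Where reads from several copies are placed on 1 copy the signal is not that of a single site. The sources used here do not state how the authors treated such reads, and the part of copy number in these signals was not tested.

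The strongest of the tandem repeat members lay near Y54F10AM.8 on chromosome III, with 280 (126 in replicate 1, 162 in replicate 2) and 261 (104 in replicate 1, 157 in replicate 2). A peak near Y53G8AR.1 had 248 (152 in replicate 1, 95.9 in replicate 2). The printed sequences of these 3 show the same unit of about 25 bases, on the other strand near Y53G8AR.1. Further members in tandem repeats lay near pqn-21 on chromosome I (211 and 137), C04G6.6 (160), nspa-10 (159) and in introns of Y47H10A.4 (115) and Y32F6A.5 (113 and 86.9). Their median was 92.8. Words of 14 bases that occurred at 5 or more distal members, simple repeats aside, were at 33 members (13.9%), 10 of them in tandem repeats. They were also at 12 of 233 promoter-proximal peaks and 218 lower ranked distal peaks (1%). The share over all main peaks was not counted. The words were picked for being at distal members, which by itself sets the higher distal count.

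Among members without a short RNA gene or a tandem repeat, the highest was the intergenic peak 523 bp upstream of K12H4.5 on chromosome III, with a signal of 467 (246 in replicate 1, 213 in replicate 2), more than double that of any other. It holds GAGAGA and TGATAA, and its window was not multi-copy. Intronic members followed at M01F1.8 (211), ints-8 (198), the Mediator subunit gene mdt-26 (192), the calcium/calmodulin-dependent kinase gene cmk-1 (169), egl-27 (145), the kinesin gene unc-104 (122) and tpra-1 (119). Intergenic ones were near F08G2.5 (159), gmeb-3 (157) and eel-1, a ubiquitin ligase gene (155). The windows at cmk-1, gmeb-3, unc-104 and tpra-1 were multi-copy, and those at M01F1.8, ints-8, mdt-26, F08G2.5 and eel-1 were not. Some of these peaks still had features of the kinds above. The ints-8 summit lay 6 bp from rpr-1, which is annotated in the ncRNA class. At unc-104 the strict B box was 68 bp from the summit, and a tRNA pseudogene was within 500 bp. The tpra-1 peak held both loose elements.

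Replicate support was measured in the separate lists of each replicate. Of the 238 members, 232 had a ranked peak in both replicates (97.5%). In the shorter thresholded lists 79 were present for both (33.2%, 95% interval 27.2 to 39.6), 29 for replicate 1 only, 34 for replicate 2 only and 96 for neither (40.3%). A member counted as present when it overlapped a peak of the list by at least 1 bp. The weaker of a close pair can therefore count through its neighbour's replicate peak. With an overlap of at least 50% of the member, 74 were in both. By the 1 bp rule, 36.1% of all main peaks were in both. Promoter-proximal peaks were in both in 27.5% of cases (odds ratio 1.31 by Fisher's exact test, with adjusted p = 0.262), and intronic and intergenic members in 31.2% and 36.3% (adjusted p = 0.542). The direction of the distal against promoter-proximal difference turned when support meant a ranked peak of each replicate within 100 bp (-7.90 percentage points, Fisher's exact test, adjusted p = 0.0037). Of the 38 snoRNA members, 25 were in both thresholded lists and 2 in neither. Of the members with the exact COE motif, egl-27, dmsr-7 and plr-1 were in both, let-526 and cha-1/unc-17 in that of replicate 1 only, C08G9.1 in that of replicate 2 only and the remaining 5 in neither.

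Over the 232 members, the ratio of replicate 1 to replicate 2 signal had a median of 1.09 and ranged between 0.413 and 2.44, and 153 ratios were above 1. Their log10 signals had a Pearson r of 0.811 and a Spearman rho of 0.617. These points were selected for agreement between replicates and share 2 libraries, so the coefficients are a description. Summits of both replicates were a median of 22 bp apart.

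**Figure D4:**
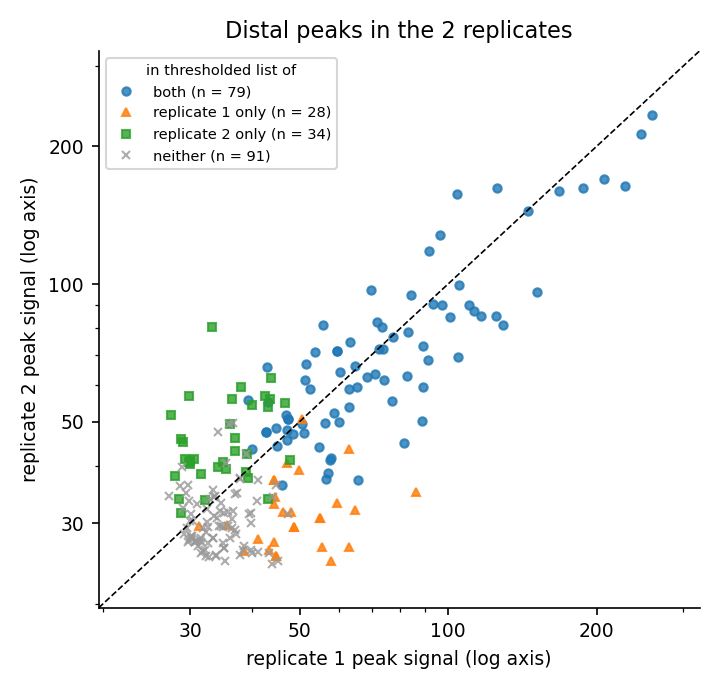
Deposited signal of each distal member in replicate 1 (horizontal, log axis) and replicate 2 (vertical, log axis) for the 232 members ranked in both; markers show the thresholded lists that hold the peak, and the dashed line marks equal values. Members in both lists reach 259 in replicate 1 and 234 in replicate 2, and those in neither crowd the low corner.

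By chromosome, distal members numbered 46 on I, 32 on II, 38 on III, 38 on IV, 42 on V and 42 on X. X thus held 17.6% of distal members (95% interval 13 to 23.1), beside 21.2% of all main peaks, 16.8% of lower ranked distal peaks and 17.67% of nuclear sequence. It held 6.01% of promoter-proximal peaks (14 of 233, odds ratio 3.35 by Fisher's exact test, with adjusted p = 0.000275). With the thresholded list of either replicate alone the difference no longer passed (8.88 points without replicate 1, Fisher's exact test, adjusted p = 0.0626, and 8.57 points without replicate 2, adjusted p = 0.0639).

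**Figure D5:**
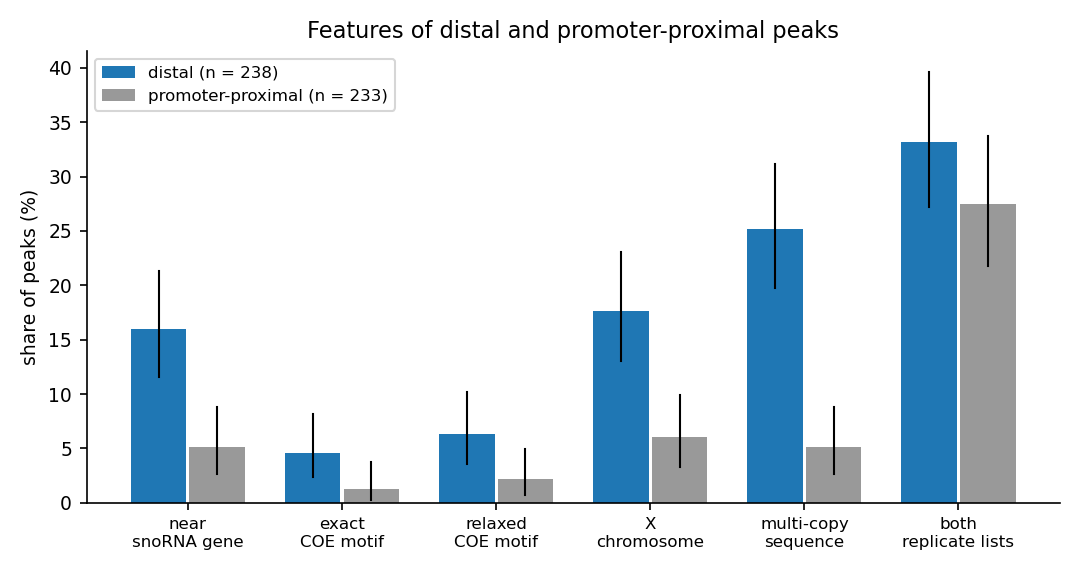
Share of distal (blue, n = 238) and promoter-proximal peaks (grey, n = 233) with each feature, in percent, with exact 95% intervals as black lines. The intervals do not overlap for snoRNA genes, the X chromosome or multi-copy sequence, and they overlap for both forms of the COE motif and for presence in both replicate lists.

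A distal peak had its host or nearest gene among 220 of 19877 protein-coding genes (1.11%). Of 7 genes of cholinergic transmission, cha-1 and unc-17 were among them and share 1 peak. Of 19 motor neuron transcription factor genes 1 was, unc-3 itself, with an intronic peak of 80.9 ranked 105 among distal peaks. Axon guidance and synapse formation had 3 of 43, vab-1, the ankyrin gene unc-44 (72.4) and unc-73, the gene of a Trio exchange factor (54.7). Pan-neuronal genes had 2 of 30, unc-41, which acts in synaptic vesicle recycling (140), and unc-104, and the unc-41 summit lay 85 bp upstream of the snoRNA gene C27H6.5. A list of 36 regulators of chromatin and transcription had 7, among them egl-27, the acetyltransferase gene cbp-1 (100.8) and let-526. The list also holds plr-1, counted among the 7, which encodes a transmembrane protein and not such a regulator. Several of its genes were placed on it because earlier results showed their peaks, so its count is no evidence of its own. Hox genes had 1 of 6, ceh-13 (61.0), ribosomal protein genes 1 of 78, rps-24 (71.1), nuclear receptors 5 of 269, led by nhr-277 (140), and neuropeptide genes 1 of 140, ins-13, which has 2 peaks beside sls-2.2. Lists of body wall muscle (20 genes), intestine (18), epidermis (17), pharynx (11), germ line (20), collagen (156), histone (50) and snoRNA-protein and rRNA processing genes (12) had 0. Any main peak was at 1 epidermis, 5 collagen and 1 histone gene. With a share of 1.11% over all genes, a 0 is the likeliest count for the short tissue lists and is no contrast between tissues. The lists were not tested.

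Near the limit of 500 bp, 10 members had their summit within 550 bp of a 5' end, with a median signal of 74.3, and the nearest was at 505 bp. On the other side, 9 promoter-proximal peaks lay at 450 bp or more, with a median of 96.1, and the farthest was at 496 bp. The most distant member was 16225 bp from any such end, at the snoRNA gene Y23H5B.10 on chromosome I.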

How the data were processed

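Peak lists from both replicates were analysed as the authors deposited them, on the assembly ce11 per the labels; its chromosomes match WBcel235. Each peak has a signal deposited by the authors, of undefined unit, and each thresholded list a deposited score, a scaled irreproducible discovery rate (IDR). The deposited ranked lists give the IDR as −log10. The sources used here name neither an aligner nor a peak caller. No read counts are held, so the depth is unknown. Of the ranked lists, 32 columns of per-replicate values were not used.

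Summits were placed against Ensembl release 115 genes and RefSeq tRNA pseudogenes (Python 3.11.15, NumPy 2.4.6, pandas 2.3.3, SciPy 1.17.1 and matplotlib 3.10.9; BLAST 2.17.0 for multi-copy windows). Coordinates are 1-based. Shares were compared with two-sided Fisher's exact tests, Benjamini-Hochberg adjusted over 17 tests. Functions were tested on simulated data. Members, lists and motifs were chosen with earlier results of these data known. Named were the 20 strongest members, every exact COE member, the 10 strongest at snoRNA genes and in introns or between genes without short RNA genes, and up to 4 members per gene list. Alternatives changed distances, windows, lists, replicates and repeat handling.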

Additional observations from a re-analysis of the deposited data

Results flagged for a closer look

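Outside the main list, 144 distal peaks of the deposited list that ranks both replicates together passed an IDR of 0.01 and yet were in none of the thresholded lists, a signal in data that the comparisons counted only among lower ranked peaks. Their signal had a median of 158 and reached 3288, whereas no main peak exceeded 500.8. Of the 144, 142 (98.6%, exact 95% interval 95.1 to 99.8) lay in multi-copy sequence and 99 in tandem repeats, 141 were intergenic and 0 intronic, and 0 held the exact COE motif. The sources used here do not state whether the authors removed peaks in repeats, and this was not tested.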

How the results depend on the processing

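All values are differences in percentage points unless said, with distal members first. Direction and side of the threshold were kept under every alternative run for multi-copy sequence against promoter-proximal peaks and for the COE motifs against lower ranked peaks. With promoters of 1000 bp the exact and relaxed COE differences from promoter-proximal peaks were 4.71 and 6.47 and passed, GAGAGA was -0.486 and signal above the median 0.697, both turned. With 2000 bp, snoRNA genes no longer passed (2.75), COE passed (5.61 exact, 8.69 relaxed), GAGAGA (-3.35) and signal (4.89) turned, and 110 members were left. With 250 bp, TGATAA against lower ranked peaks passed (-5.61). Counting 5' ends of all genes but piRNA genes left 149 members with 0% at snoRNA genes, by construction, and turned snoRNA genes (-15.5, and -0.0416 against lower ranked peaks), GAGAGA (-0.744), both replicate lists (-13) and introns (-1.09), while lower signal passed (-18.5). The other thresholded list made COE (3.64 exact, 4.11 relaxed) and TGATAA (-6.68) pass. With the list of 1 replicate alone, members numbered 125 to 137, snoRNA shares were 22.6% to 25.6%, exact COE was 1.23 to 2.30, X did not pass (8.57 to 8.88), signal turned (6.32 to 14.6), and without replicate 1 GAGAGA and intronic signal turned (ranges -0.336 to 4 and -4.88 to 3.01). The part of the main list with higher signal held 102 members, 30.4% at snoRNA genes, with GAGAGA at -1.56 against promoter-proximal peaks (turned) and 4.75 against lower ranked ones (not passing). Without multi-copy peaks, COE (4.82 exact, 6.16 relaxed) and introns against lower ranked peaks (8.10) passed, and the snoRNA share was 21.3%. TGATAA passed with motif windows of 50 bp (-3.89), relaxed COE with 250 bp (5.00), and support by ranked peaks turned (-7.90). Where no construction is named, the cause was not tested. No paired analysis was possible because the labels give 1 group. Depth is unknown, and without a control library background cannot be set beside the peaks.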
